A study of Mus musculus with 6 samples.

Results

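The subject is 10 potassium channel subunits of the heart, taken as the rows of the deposited expression table whose gene name is Kcnd2, Kcnd3, Kcnip2, Kcnq1, Kcne1, Kcnh2, Kcnj2, Kcnj3, Kcnj5 or Kcnj11, out of 26881 genes in all. Heart RNA of 3 Cfp1-cKO and 3 WT mice, all 2 weeks old, was sequenced. Cfp1-cKO mice were Myh6-Cre with both Cfp1 alleles floxed (labelled CXXC1 null), on the C57BL/6 background. Which of these alleles the WT mice carried is not given in the sources used here. The paper names WT littermates as controls for growth at 3 weeks of age, but does not say so for the sequenced hearts. Myh6-Cre is active in heart muscle cells, whereas the libraries were made from heart tissue with all its cell types, and whether 1 heart or a pool made a sample is not given either, so that p-values speak of the spread among these samples alone. Cfp1, encoded by Cxxc1, belongs to the Setd1 methyltransferases of histone H3 lysine 4, and its CXXC domain binds unmethylated CpG dinucleotides.

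Potassium channels end the cardiac action potential. Kcnd2 and Kcnd3 form the pore of the fast transient outward current, which dominates early repolarization in rodent ventricle, and Kcnip2 encodes the cytosolic subunit KChIP2 that brings these pores to the membrane. Kcnq1 and its single-span partner Kcne1 make the slow delayed rectifier, Kcnh2 the rapid delayed rectifier, and Kcnj2 the inward rectifier that holds the resting potential. Kcnj3 and Kcnj5 assemble into the acetylcholine-activated channel, which is strongest in atria and nodes, and Kcnj11 is the pore of the ATP-sensitive channel, which needs a sulphonylurea receptor such as Abcc9.

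Expression was deposited in FPKM, the fragments per kilobase of exon scaled by each library's total fragments. The 6 libraries held between 16672652 and 22700811 fragments, and the 10 subunits were each covered by 59 to 1997 fragments per library. Differences were tested with limma on log2(FPKM + 1), in the 11017 genes averaging 1 FPKM or more. Calls needed an adjusted p under 0.05 together with a log2 fold change beyond 0.5 in either direction. On this scale the changes of low genes come out too small. The median tested gene stood 0.35 higher in Cfp1-cKO hearts on the log2 scale, so each subunit was also compared after median-of-ratios scaling, which brings that median to 0.00. Under this scaling 46.5% of all calls were lower in Cfp1-cKO hearts, against 7.37% of the calls on deposited FPKM. Cxxc1, the targeted gene, measured 8.02, 9.94 and 8.74 FPKM in Cfp1-cKO hearts, against 9.66, 12.9 and 10.03 FPKM in WT hearts. On the log2 scale the fold change, over the whole gene and all cells, was -0.26 (adjusted p = 0.249). It was -0.66 (adjusted p = 0.0571) after median-of-ratios scaling. With the cardiomyocyte marker scaling described below it was -0.02 (adjusted p = 0.955).

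Markers of other cell types and of sex also differed between the libraries. All 12 lung epithelial markers were called higher in Cfp1-cKO hearts, summing to 3228 to 4914 FPKM in Cfp1-cKO hearts and 0.248 to 4.98 FPKM in WT hearts. Sftpc, surfactant protein C, was at 1202 to 3232 FPKM in Cfp1-cKO hearts and at most 0.330 FPKM in WT hearts, where it was listed at 0 in replicates 1 and 3. Of 9 atrial markers 5 were called lower and 1 higher, and their sum was 356 to 662 FPKM in Cfp1-cKO hearts and 911 to 1618 FPKM in WT hearts. Of 12 cardiomyocyte markers 3 were called lower and none higher, and their sum, 10558 to 14172 FPKM in Cfp1-cKO hearts and 10876 to 19828 FPKM in WT hearts, overlapped between genotypes. Xist, read from the inactive X chromosome of females, had 22.5 and 34.5 FPKM in Cfp1-cKO replicates 1 and 2 and 12.4 FPKM in WT replicate 2, and at most 0.0279 FPKM in the other 3 libraries. The Y-linked Ddx3y was at 22.2 FPKM in Cfp1-cKO replicate 3 and at 18.2 and 18.0 FPKM in WT replicates 1 and 3, but also at 0.938 and 0.658 FPKM in Cfp1-cKO replicates 1 and 2. In libraries of whole tissue, fewer cells of a type and less RNA per cell cannot be told apart.

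Kcne1, Kcnip2 and Kcnj3 were lower in Cfp1-cKO hearts, at 0.32, 0.33 and 0.40 of their WT means. They were 3 of the 9 subunits that passed the filter, while 1.68% of all tested genes were called lower. None of the 9 was called higher by limma, where 21.1% of all tested genes were. At an unadjusted p below 0.05, 0 subunits were higher and 4 lower, where 40.7% of all tested genes were higher and 3.09% lower. Voom of limma on recovered fragments called 0 subunits higher and 3 lower, and of all its genes 23.4% higher and 1.49% lower. Kcnd3, at a mean of 0.839 FPKM over the 6 libraries, did not pass the filter. The median log2 fold change of the 9 was -0.67, against 0.35 over all tested genes, and 8 of the 9 had a negative value. After median-of-ratios scaling Kcnj5 was called lower as well, which made 4 of 9, with 3.25% of all tested genes called lower and 3.74% called higher under that scaling, and the median of the 9 was -1.07.

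The count of 3 depended on single libraries. No subunit was called without Cfp1-cKO replicate 1, without Cfp1-cKO replicate 2 or without WT replicate 1. Of all 11017 tested genes 105, 50 and 61 were called lower there, against 185 with all libraries. Kcne1 was the sole call without WT replicate 3, Kcnj3 and Kcnj5 were called without Cfp1-cKO replicate 3, and Kcne1, Kcnip2 and Kcnj11 were called without WT replicate 2. In that order 201, 132 and 170 of all tested genes were called lower. With no filter, where all 26881 genes were tested, no subunit was called either (adjusted p of 0.0697 for Kcne1, 0.0785 for Kcnip2 and 0.0923 for Kcnj3). Over all genes 91 were called lower with no filter. Cfp1-cKO replicate 1 was the lowest Cfp1-cKO library for 8 of the 10 subunits, and replicate 3 was the highest for 8. How many of all genes were lowest in replicate 1 was not counted. The atrial marker sum was also lowest in replicate 1 (356 FPKM), but highest in replicate 2 (662 FPKM, against 493 FPKM in replicate 3).

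**Figure D1:**
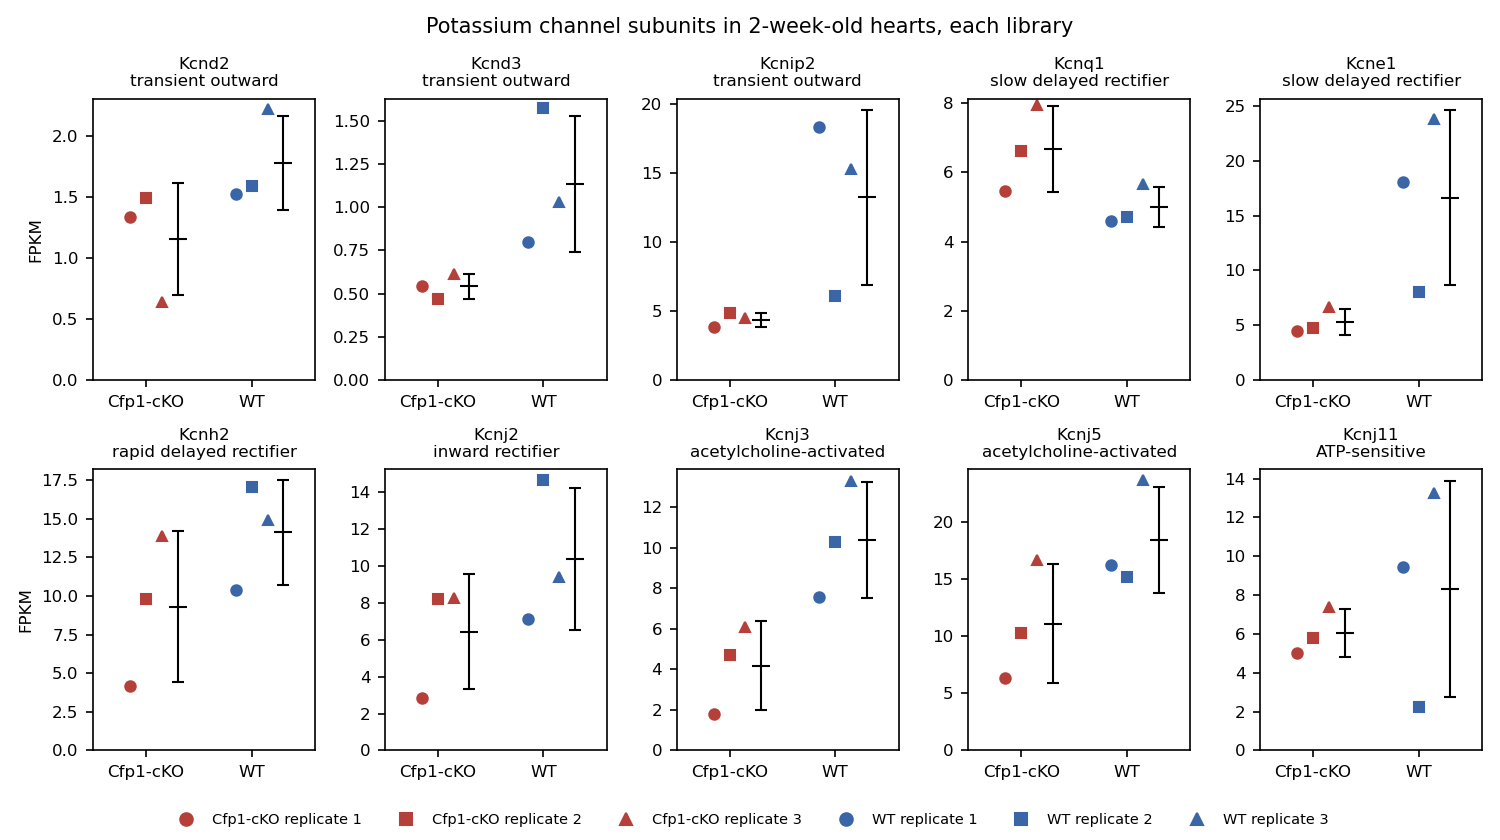
FPKM (vertical axes, each starting at 0) of the 10 subunits in the 3 Cfp1-cKO and 3 WT libraries, 1 point per library with its shape marking the replicate number; the bar beside each group is the mean with its SD. Kcne1, Kcnip2, Kcnj3, Kcnd2 and Kcnd3 have every Cfp1-cKO point under every WT point, and WT replicate 2 is low for Kcnip2, Kcne1 and Kcnj11.

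Levels, in FPKM and thus per exon length, differed widely among the 10 subunits. In Cfp1-cKO hearts the order by mean ran Kcnj5, Kcnh2, Kcnq1, Kcnj2, Kcnj11, Kcne1, Kcnip2, Kcnj3, Kcnd2 and Kcnd3, from 11.1 FPKM at the top to 0.543 FPKM at the bottom. In WT hearts it ran Kcnj5, Kcne1, Kcnh2, Kcnip2, Kcnj2, Kcnj3, Kcnj11, Kcnq1, Kcnd2 and Kcnd3, from 18.4 to 1.13 FPKM. Kcne1 stood at rank 6 in Cfp1-cKO hearts and rank 2 in WT hearts, and Kcnq1 at rank 3 in Cfp1-cKO hearts and rank 8 in WT hearts. Most neighbours in these orders overlapped in their libraries, 7 of 9 neighbouring pairs in Cfp1-cKO hearts and 8 of 9 in WT hearts. The break that both orders shared was the one above Kcnd2, so that the pores of the transient outward current were the least expressed of the set. The 10 subunits together summed to 35.8, 56.9 and 72.6 FPKM in Cfp1-cKO hearts, against 94.1, 81.4 and 122.5 FPKM in WT hearts, with no overlap.

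Kcnip2 (chromosome 19 from 45791839 to 45816061 of GRCm38, minus strand, protein-coding), the accessory subunit of the transient outward channel, stood at 3.81, 4.81 and 4.47 FPKM in Cfp1-cKO hearts, against 18.3, 6.11 and 15.3 FPKM in WT hearts. The Cfp1-cKO values lay close together and under all WT values, while WT replicate 2 lay far under the other WT libraries. The log2 fold change was -1.29 (SE, the standard error, 0.34; adjusted p = 0.0315), and -1.67 (adjusted p = 0.0253) after median-of-ratios scaling. It was past the threshold without WT replicate 2 (-1.73, adjusted p = 0.00126), and not past it without any other single library, where adjusted p was 0.0577 to 0.0917.

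The pores were measured at few fragments. Kcnd2 (chromosome 6 from 21215503 to 21729805, plus strand) measured 1.34, 1.49 and 0.636 FPKM in Cfp1-cKO hearts, against 1.52, 1.59 and 2.22 FPKM in WT hearts, from 59 to 206 fragments a library. No Cfp1-cKO value reached a WT value, but the gap between the nearest libraries was small, and the log2 fold change of -0.38 (SE 0.21, adjusted p = 0.186) did not pass the test. Kcnd3 (chromosome 3 from 105452330 to 105674002, plus strand) had 0.546, 0.469 and 0.614 FPKM in Cfp1-cKO hearts, against 0.800, 1.57 and 1.03 FPKM in WT hearts. These values did not overlap either, and with every gene of the table in the test its log2 fold change was -0.45 (adjusted p = 0.148). Kcnd3 shares 165 exonic bases with the antisense gene Kcnd3os, which was at most 0.164 FPKM in any library.

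Kcne1 (chromosome 16 from 92346001 to 92359468, minus strand), the modulatory subunit of the slow delayed rectifier, stood at 4.50, 4.79 and 6.64 FPKM in Cfp1-cKO hearts, against 18.1, 8.05 and 23.8 FPKM in WT hearts. All Cfp1-cKO libraries lay below all WT libraries, of which replicate 2 was again the lowest. The log2 fold change was -1.38 (SE 0.34, adjusted p = 0.0276), the largest fall of the 9 tested subunits, and -1.77 (adjusted p = 0.0192) after scaling. Without 1 library at a time the fall was 1.07 to 1.80 on the log2 scale, and its adjusted p was 0.0025 without WT replicate 2, 0.0427 without WT replicate 3 and 0.0525 to 0.0953 without any of the others. The deposited coordinates of Kcne1 differ from those of GENCODE release M21, and its FPKM steps gave a length of 3195 bases, against 3214 bases there.

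Kcnq1 (chromosome 7 from 143106362 to 143427042, plus strand), the pore that Kcne1 joins, measured 5.46, 6.61 and 7.95 FPKM in Cfp1-cKO hearts, against 4.596, 4.72 and 5.66 FPKM in WT hearts. The lowest Cfp1-cKO library lay under the highest WT library, and the log2 fold change of 0.35 (SE 0.17, adjusted p = 0.148) equalled that of the median gene at this rounding. After median-of-ratios scaling it was -0.03 (adjusted p = 0.908). Its antisense neighbour Kcnq1ot1, which shares 121 exonic bases with it, was at most 0.0810 FPKM.

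Kcnh2 (chromosome 5 from 24319589 to 24351604, minus strand), the pore of the rapid delayed rectifier, had 4.17, 9.80 and 13.9 FPKM in Cfp1-cKO hearts, against 10.4, 17.1 and 14.9 FPKM in WT hearts. Kcnj2 (chromosome 11 from 111066164 to 111076821, plus strand), which encodes Kir2.1, stood at 2.83, 8.19 and 8.26 FPKM in Cfp1-cKO hearts, against 7.14, 14.6 and 9.41 FPKM in WT hearts. Both had their lowest value in Cfp1-cKO replicate 1 and their highest in WT replicate 2, and the genotypes overlapped. Their log2 fold changes were -0.66 (95% interval -1.49 to 0.17) for Kcnh2 and -0.67 (95% interval -1.53 to 0.18) for Kcnj2, at adjusted p of 0.188 and 0.187, so that neither passed the test. Without Cfp1-cKO replicate 1 they were -0.23 for Kcnh2 and -0.25 for Kcnj2. After median-of-ratios scaling their libraries no longer overlapped, but adjusted p was 0.106 for Kcnh2 and 0.118 for Kcnj2.

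Kcnj3 (chromosome 2 from 55435970 to 55598145, plus strand), which encodes Kir3.1 (GIRK1), measured 1.79, 4.68 and 6.08 FPKM in Cfp1-cKO hearts, against 7.59, 10.3 and 13.3 FPKM in WT hearts. The genotypes did not overlap, and the log2 fold change was -1.21 (SE 0.34, adjusted p = 0.0385), or -1.59 (adjusted p = 0.0235) after scaling. It was past the threshold without Cfp1-cKO replicate 3 and not past it without any other single library, where adjusted p was 0.0610 to 0.0906 and the fall was smallest, 0.81, without Cfp1-cKO replicate 1. The gene Gm26794 covers 31.1% of the exonic bases of Kcnj3 on the opposite strand and was at most 0.142 FPKM; the library kit does not mark strand.

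Kcnj5 (chromosome 9 from 32314707 to 32344350, minus strand), which encodes its partner Kir3.4 (GIRK4), had 6.34, 10.3 and 16.6 FPKM in Cfp1-cKO hearts, against 16.2, 15.2 and 23.7 FPKM in WT hearts. Cfp1-cKO replicate 3 lay within the WT range and the others below it. The log2 fold change was -0.75 (SE 0.31, adjusted p = 0.103), and -1.16 (adjusted p = 0.0461) after median-of-ratios scaling, the only setting with all 6 libraries in which Kcnj5 was called. Myl7, a myosin light chain of atrial muscle, stood at 11.5, 119 and 49.4 FPKM in Cfp1-cKO hearts, against 557, 581 and 920 FPKM in WT hearts, and the part of atrial tissue in the values of Kcnj3 and Kcnj5 was not tested. The other atrial markers called lower were Sln, Sbk2, Sbk3 and Mybphl, of which Sbk3, picked out after its values were seen, measured 0.161, 0.319 and 0.990 FPKM in Cfp1-cKO hearts, against 10.7, 8.33 and 22.1 FPKM in WT hearts. Myl4 ranged over 22.03 to 96.4 FPKM in Cfp1-cKO hearts and 90.9 to 198 FPKM in WT hearts and was not called. Nppa, the atrial natriuretic peptide, was the marker called higher, with a log2 fold change of 1.01 (adjusted p = 0.0408) that did not pass after median-of-ratios scaling (0.57, adjusted p = 0.246), with no filter or when any single library other than WT replicate 3 was left out.

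Kcnj11 (chromosome 7 from 46093953 to 46100764, minus strand), which encodes Kir6.2, stood at 4.998, 5.77 and 7.40 FPKM in Cfp1-cKO hearts, against 9.43, 2.25 and 13.2 FPKM in WT hearts. The Cfp1-cKO libraries lay between WT replicate 2 and the other WT libraries. The log2 fold change of -0.17 (95% interval -1.26 to 0.92, adjusted p = 0.800) had the widest interval of the set. It rested on WT replicate 2: without that library Kcnj11 was called, with a log2 fold change of -0.80 (adjusted p = 0.0412).

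**Figure D2:**
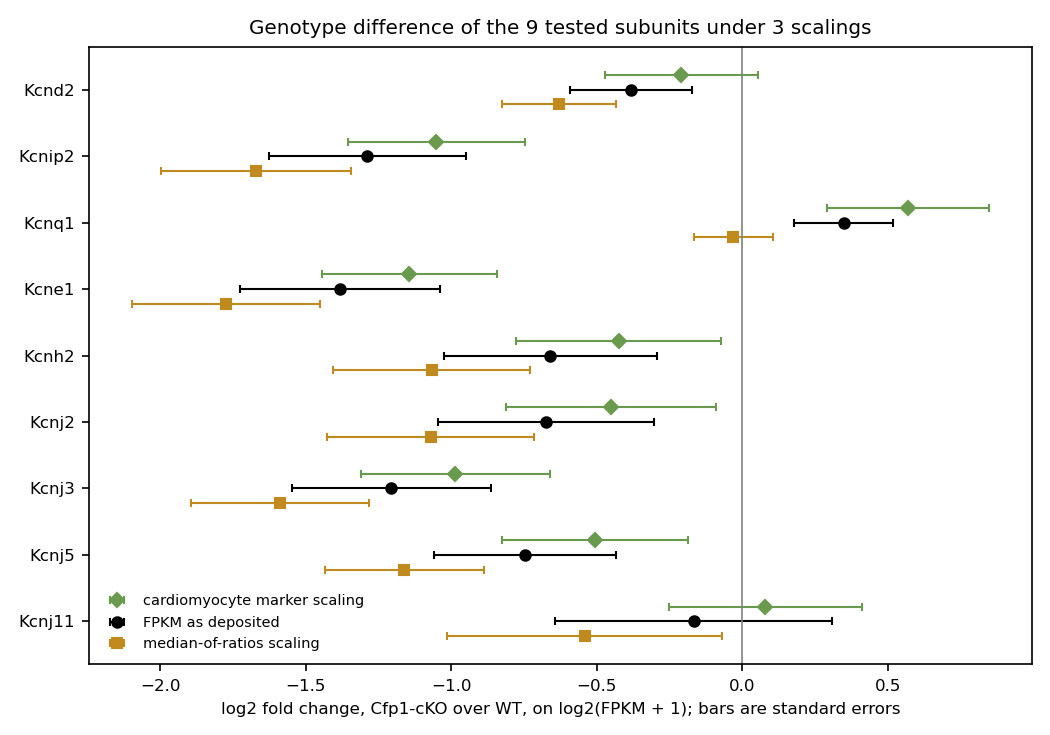
Log2 fold change of Cfp1-cKO over WT (horizontal axis, log2(FPKM + 1) scale) for the 9 tested subunits, with standard errors as bars, under cardiomyocyte marker scaling, on FPKM as deposited and under median-of-ratios scaling. Kcne1, Kcnip2 and Kcnj3 lie left of -0.98 under all 3, whereas Kcnq1 lies between -0.03 and 0.57 and Kcnj11 between -0.54 and 0.08, on both sides of 0.

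By separation of the libraries, without a test, all 3 Cfp1-cKO libraries lay below all 3 WT libraries for Kcnd2, Kcnip2, Kcne1 and Kcnj3, 4 of the 9 tested subunits, and for Kcnd3, while this held for 3.23% of all tested genes. No tested subunit had all its Cfp1-cKO libraries above all its WT libraries, as 46.4% of tested genes did. After median-of-ratios scaling 7 of the 9 lay wholly below, Kcnq1 and Kcnj11 being the exceptions, against 14.9% of tested genes. Dividing instead by the geometric mean of the cardiomyocyte markers, 3 of which were themselves called lower, gives levels relative to those markers. By limma it kept Kcne1 (-1.14, adjusted p = 0.00663), Kcnip2 (-1.05, adjusted p = 0.0117) and Kcnj3 (-0.99, adjusted p = 0.0235) past the threshold. Under this scaling 71 of all 11017 tested genes were called lower and 3578 higher, and the median tested gene stood at 0.56.

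Within the libraries alike by Xist and Ddx3y, the genotypes were compared by values alone, since these cells held 1 or 2 libraries. In the Xist-high libraries Kcnip2 measured 3.81 and 4.81 FPKM in Cfp1-cKO hearts, against 6.11 FPKM in the WT heart, and in the Y-high libraries it measured 4.47 FPKM in the Cfp1-cKO heart, against 18.3 and 15.3 FPKM in WT hearts. Kcne1 was at 4.50 and 4.79 FPKM, against 8.05 FPKM in WT, in the Xist-high libraries, and at 6.64 FPKM, against 18.1 and 23.8 FPKM in WT, in the Y-high libraries. Kcnj3 was at 1.79 and 4.68 FPKM, against 10.3 FPKM in WT, in the Xist-high libraries, and at 6.08 FPKM, against 7.59 and 13.3 FPKM in WT, in the Y-high libraries. All 3 were thus lower on both sides, but by unequal amounts. On the Xist-high side the log2 fold change was -0.43 for Kcnip2, -0.68 for Kcne1 and -1.50 for Kcnj3. On the Y-high side it was -1.70, -1.51 and -0.65. With sex as a covariate in limma, an alternative chosen after seeing the data, 1 genotype difference is fitted for both sides. The 3 subunits were called there with log2 fold changes of -1.06 for Kcnip2, -1.10 for Kcne1 and -1.07 for Kcnj3 (adjusted p of 0.0289, 0.0156 and 0.0482). In that fit 197 of all 11017 tested genes were called lower and 3006 higher. For Kcnj11 the libraries separated in opposite directions, higher in both Xist-high Cfp1-cKO libraries than in the Xist-high WT library and lower in the Y-high Cfp1-cKO library than in both Y-high WT libraries. Kcnh2 and Kcnj2 were lower in both Xist-high Cfp1-cKO libraries and lay within the WT range in the Y-high one, with log2 fold changes of -1.28 on the Xist-high and 0.15 on the Y-high side for Kcnh2 and of -1.40 and 0.01 for Kcnj2.

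Ratios between subunits, of the same channel or of related ones, were then compared within each library, where scaling between libraries drops out. The mixture of cell types does not drop out, and the part of lung or atrial transcripts in these ratios was not tested. The Kcne1 to Kcnq1 ratio was 0.825, 0.724 and 0.835 in Cfp1-cKO hearts, against 3.93, 1.71 and 4.21 in WT hearts. Kcne1 thus stood below its pore partner in every Cfp1-cKO library and above it in every WT library, and the geometric mean ratio was 0.26 of that in WT hearts (log2 difference -1.94, SE 0.42). The Kcnj3 to Kcnj5 ratio was 0.282, 0.456 and 0.366 in Cfp1-cKO hearts, against 0.467, 0.676 and 0.561 in WT hearts, again without overlap (log2 difference -0.64, SE 0.25). The summed pores Kcnd2 and Kcnd3 relative to Kcna5, the pore of a slower voltage-gated current, were at 0.219, 0.266 and 0.140 in Cfp1-cKO hearts, against 0.398, 1.08 and 0.360 in WT hearts (log2 difference -1.41, SE 0.58). For each of these 3 ratios the two-sided exact permutation test gave p = 0.10, the smallest that 3 libraries against 3 allow, and 0.233 after adjustment over the 7 ratios compared.

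The other 4 ratios overlapped between genotypes. Kcnip2 to its pores Kcnd2 plus Kcnd3 was at 2.03, 2.46 and 3.58 in Cfp1-cKO hearts, against 7.88, 1.93 and 4.70 in WT hearts (log2 difference -0.67, SE 0.64). This overlap rested on WT replicate 2, without which the log2 difference was -1.22, against -0.21 without WT replicate 1. Kcnd3 to Kcnd2 was at 0.409, 0.315 and 0.965 in Cfp1-cKO hearts, against 0.525, 0.991 and 0.464 in WT hearts. Kcnj2 to Kcnj12, which encodes the related inward rectifier Kir2.2, was at 0.798, 1.83 and 0.888 in Cfp1-cKO hearts, against 1.56, 2.62 and 1.12 in WT hearts. Kcnj11 to its receptor Abcc9 was at 0.224, 0.255 and 0.219 in Cfp1-cKO hearts, against 0.333, 0.0572 and 0.421 in WT hearts, so that WT replicate 2 lay below and the other WT libraries above all Cfp1-cKO libraries. The exact permutation p of these 4 ran between 0.3 and 1. The log2 difference of Kcnj11 to Abcc9 was 0.21 with all libraries and -0.69 without WT replicate 2.

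**Figure D3:**
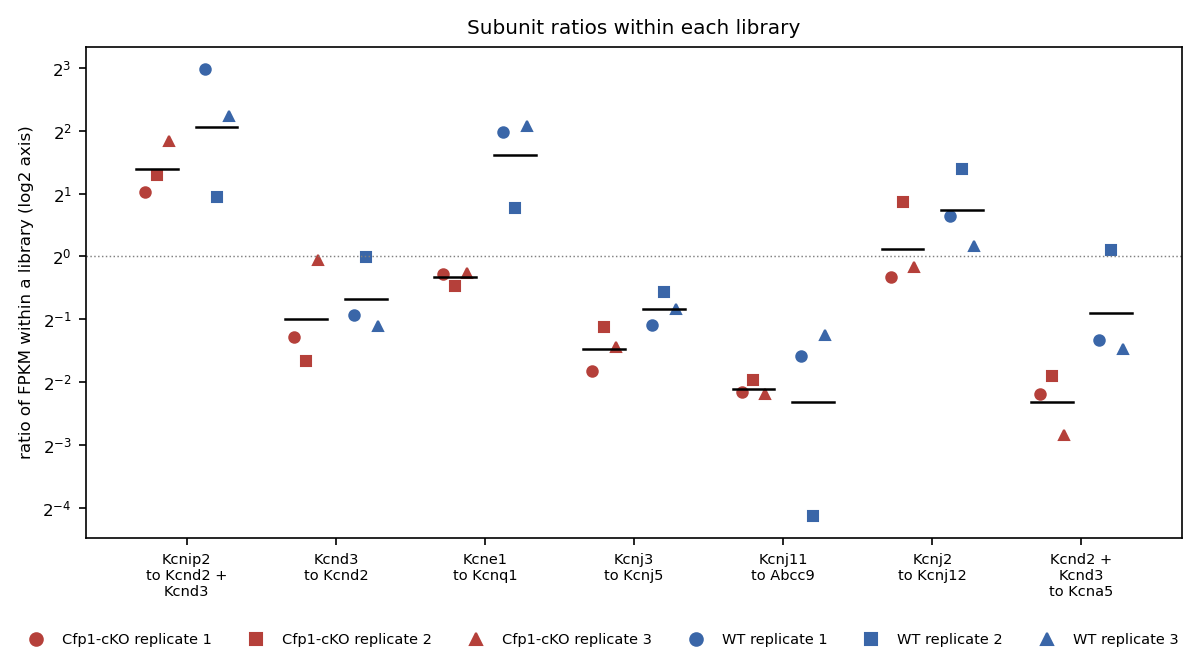
Ratio of FPKM within each library (vertical axis, log2 scale) for 7 pairs of subunits, Cfp1-cKO left of WT, 1 point per library, with the geometric mean of each group as a line. The Kcne1 to Kcnq1 ratio lies between 0.724 and 0.835 in Cfp1-cKO hearts and between 1.71 and 4.21 in WT hearts, on opposite sides of the dotted line at 1.

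Of the 10 subunits, 7 had a window before their start among the RefSeq promoter sequences (GRCm38.p6), and the 250 bases before the start were searched for CpG, the letters CG, which read the same on both strands. Over 32851 such windows 92.1% held a CG, and the median was 6. The counts were 22 for Kcnd2, 18 for Kcnd3, 15 for Kcnip2, 14 for Kcnh2, 14 for Kcnj2, 7 for Kcnj3 and 7 for Kcnj5, so that all 7 were above that median. The RefSeq start lay within 6 bases of the deposited gene start for Kcnip2, Kcnj2, Kcnj3 and Kcnj5, 157 bases before it for Kcnd2 and 440 bases before it for Kcnd3. For Kcnh2 it lay 22013 bases inside the gene, so that this window is not the one before the deposited start. At least 15 CpG were found in 27.3% of windows and at least 7 in 46.3%. Kcne1, Kcnq1 and Kcnj11 had no window. Whether the CpG count goes with the change in expression was not tested. A CpG in these letters shows neither binding of Cfp1 nor its methylation state, which were not measured here. The windows of Kcnip2 (chr19:45816064-45816313, minus strand), Kcnj3 (chr2:55435720-55435969, plus strand) and Kcnj5 (chr9:32344345-32344594, minus strand) are shown with CG in capitals. They set the 15 CpG of Kcnip2 beside the 7 in each of the 2 partners of the acetylcholine-activated channel. Kcnip2 and Kcnj3 were called lower on deposited FPKM, and Kcnj5 was not.
Kcnip2: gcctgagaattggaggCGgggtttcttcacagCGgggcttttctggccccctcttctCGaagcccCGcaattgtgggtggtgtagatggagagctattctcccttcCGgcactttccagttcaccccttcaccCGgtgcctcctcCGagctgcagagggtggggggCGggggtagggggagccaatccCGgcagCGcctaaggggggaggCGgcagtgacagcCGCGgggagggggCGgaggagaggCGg
Kcnj3: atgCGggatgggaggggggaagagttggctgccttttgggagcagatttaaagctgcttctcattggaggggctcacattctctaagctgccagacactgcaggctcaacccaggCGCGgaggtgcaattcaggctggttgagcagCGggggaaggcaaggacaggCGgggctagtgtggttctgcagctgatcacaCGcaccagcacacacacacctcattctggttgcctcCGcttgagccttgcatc
Kcnj5: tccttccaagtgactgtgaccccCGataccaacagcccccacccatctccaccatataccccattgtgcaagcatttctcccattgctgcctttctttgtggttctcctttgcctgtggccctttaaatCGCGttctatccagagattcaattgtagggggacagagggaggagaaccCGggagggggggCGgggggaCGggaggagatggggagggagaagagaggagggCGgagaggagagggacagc

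Of 26 further subunits with a known place in heart muscle or its vessels, 9 passed the filter and none was called in either direction (by limma; at an unadjusted p below 0.05, 0 were higher and 1 lower, and voom called 0). Their median log2 fold change was 0.04, against -0.67 for the 9 tested subunits above and 0.35 for all tested genes. Of all tested genes limma called 21.1% higher and 1.68% lower. Kcnj8, the Kir6.1 pore of vascular ATP-sensitive channels, had 12.6, 12.6 and 12.4 FPKM in Cfp1-cKO hearts, against 12.0, 13.3 and 11.2 FPKM in WT hearts. Abcc9, the receptor subunit of both Kir6 pores, stood at 22.3, 22.7 and 33.8 FPKM in Cfp1-cKO hearts, against 28.3, 39.4 and 31.4 FPKM in WT hearts (adjusted p = 0.232). Kcna5, which encodes Kv1.5, measured 8.59, 7.36 and 8.92 FPKM in Cfp1-cKO hearts, against 5.83, 2.93 and 9.04 FPKM in WT hearts, with overlap. Kcnk3, the two-pore channel TASK-1, was picked out after its values were seen, as the 1 gene of the list called after median-of-ratios scaling. It had 12.6, 15.4 and 20.5 FPKM in Cfp1-cKO hearts, against 21.4, 21.03 and 25.1 FPKM in WT hearts, a log2 fold change of -0.47 (adjusted p = 0.0950) and of -0.90 after scaling (adjusted p = 0.0192).

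Several subunits below the filter were higher in Cfp1-cKO hearts by value, in the libraries that also held lung transcripts. Over the 26 genes 11 had all Cfp1-cKO libraries above all WT libraries, as did 33.1% of all genes in the table. Kcne2, a single-span partner of Kcnh2 and other pores, measured 1.48, 1.97 and 2.199 FPKM in Cfp1-cKO hearts but was listed at 0 in each WT library. Kcnk1, the two-pore channel TWIK-1, measured 0.896, 1.23 and 1.96 FPKM in Cfp1-cKO hearts, against 0.0197, 0.0237 and 0.0497 FPKM in WT hearts. Both were picked out after their values were seen, and both were called higher when every gene of the table was tested. The part of lung transcripts in them was not tested.

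**Figure D4:**
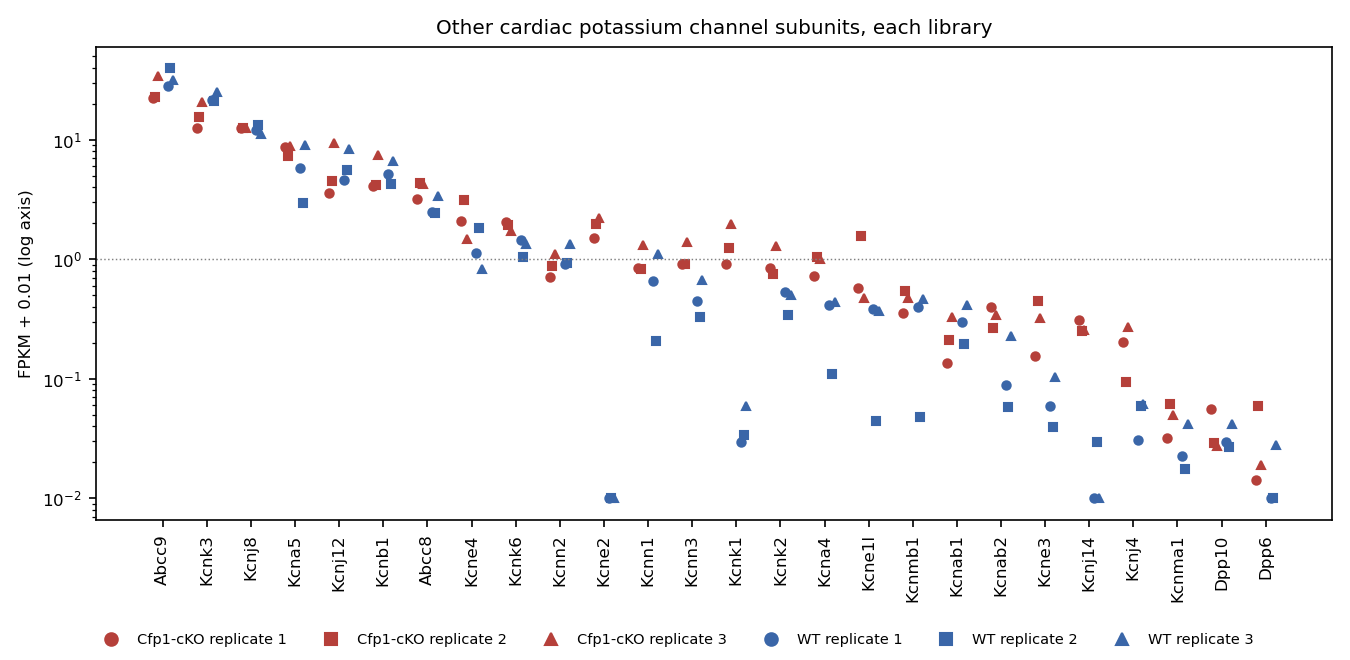
FPKM plus 0.01 (vertical axis, log scale) of the 26 other cardiac potassium channel subunits in each library, Cfp1-cKO left of WT, ordered by mean; the dotted line marks 1 FPKM and points at the floor are listed at 0. Abcc9, Kcnk3 and Kcnj8 stand at the left with the highest means, and the genotypes stand far apart for Kcne2 and Kcnk1.

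Among all 91 genes whose symbol starts with Kcn, 19 were tested, 3 were called lower and 1 higher. Of all tested genes 1.68% were called lower and 21.1% higher. The 3 were Kcne1, Kcnip2 and Kcnj3 themselves. The 1 was Kcnj15, which encodes Kir4.2, a channel known from epithelia. It had 2.71, 4.72 and 4.99 FPKM in Cfp1-cKO hearts, against 0.367, 0.158 and 0.538 FPKM in WT hearts. The log2 fold change was 1.90 (SE 0.22, adjusted p = 0.00207), and the part of lung transcripts in it was not tested.

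Of 13 genes whose products anchor or regulate these channels, all tested, 5 were called higher, with 21.1% of all tested genes called higher, and none lower (limma; at an unadjusted p below 0.05, 6 were higher and 2 lower, and voom called 5 higher and 1 lower). Rgs4, which speeds the shut-off of G protein signals to the acetylcholine-activated channel, stood at 17.1, 14.2 and 7.96 FPKM in Cfp1-cKO hearts, against 5.59, 7.04 and 6.83 FPKM in WT hearts, a rise of 0.86 on the log2 scale (adjusted p = 0.0439). Gnb5, the G protein beta subunit that pairs with RGS proteins, rose by 0.83 on the log2 scale (adjusted p = 0.0188), and Gnai2, an inhibitory G protein alpha subunit, by 0.79 (adjusted p = 0.0197). Dlg1, the scaffold SAP97, rose by 0.61 (adjusted p = 0.0253). None of the 5 called genes passed after median-of-ratios scaling, at adjusted p from 0.117 to 0.433, nor without Cfp1-cKO replicate 2 or without WT replicate 1. The call of Rgs4 was also lost with no filter (adjusted p = 0.0943), without the mitochondrially encoded and haemoglobin genes (adjusted p = 0.101), and when any single library other than Cfp1-cKO replicate 3 was left out (adjusted p of 0.0590 to 0.144), and those of Gnb5 and Dlg1 without Cfp1-cKO replicate 3. Under that scaling 2 genes of the list, picked out after their values were seen, were called lower: Chrm2, the muscarinic receptor that opens the acetylcholine-activated channel, at 17.1, 16.5 and 39.9 FPKM in Cfp1-cKO hearts, against 52.0, 31.3 and 54.8 FPKM in WT hearts, and Cav3, the muscle caveolin, at 49.7, 45.1 and 56.9 FPKM in Cfp1-cKO hearts, against 97.2, 124 and 59.0 FPKM in WT hearts. On deposited FPKM neither passed the test (adjusted p = 0.0745 for Chrm2 and 0.0521 for Cav3).

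Transcription factors known from mouse to shape the ventricular gradient of the transient outward current, or the atrial and conduction programmes, showed no call among the 7 tested by limma. There were 0 in either direction at an unadjusted p below 0.05, and 0 by voom. Of all tested genes limma called 21.1% higher and 1.68% lower. Irx5, a repressor of Kcnd2 in mouse, measured 1.63, 2.38 and 4.47 FPKM in Cfp1-cKO hearts, against 2.42, 2.44 and 2.54 FPKM in WT hearts, so that the Cfp1-cKO libraries spread around the WT libraries. Hey2, picked out after its values were seen as the 1 gene of this list called after median-of-ratios scaling (adjusted p = 0.0371), had 1.23, 1.79 and 2.42 FPKM in Cfp1-cKO hearts, against 2.45, 3.03 and 2.79 FPKM in WT hearts. Of 9 conduction system markers 4 were tested and none was called (limma; at an unadjusted p below 0.05, 1 was higher and 0 lower, and voom called 0), and their sum was 7.83 to 13.0 FPKM in Cfp1-cKO hearts and 6.78 to 10.9 FPKM in WT hearts. Endothelial markers were called higher for 2 of 8, fibroblast markers for 1 of 7 and smooth muscle and pericyte markers for 2 of 6 tested, where 21.1% of all tested genes were called higher, with none lower on deposited FPKM, and none of these was called after median-of-ratios scaling.

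**Figure D5:**
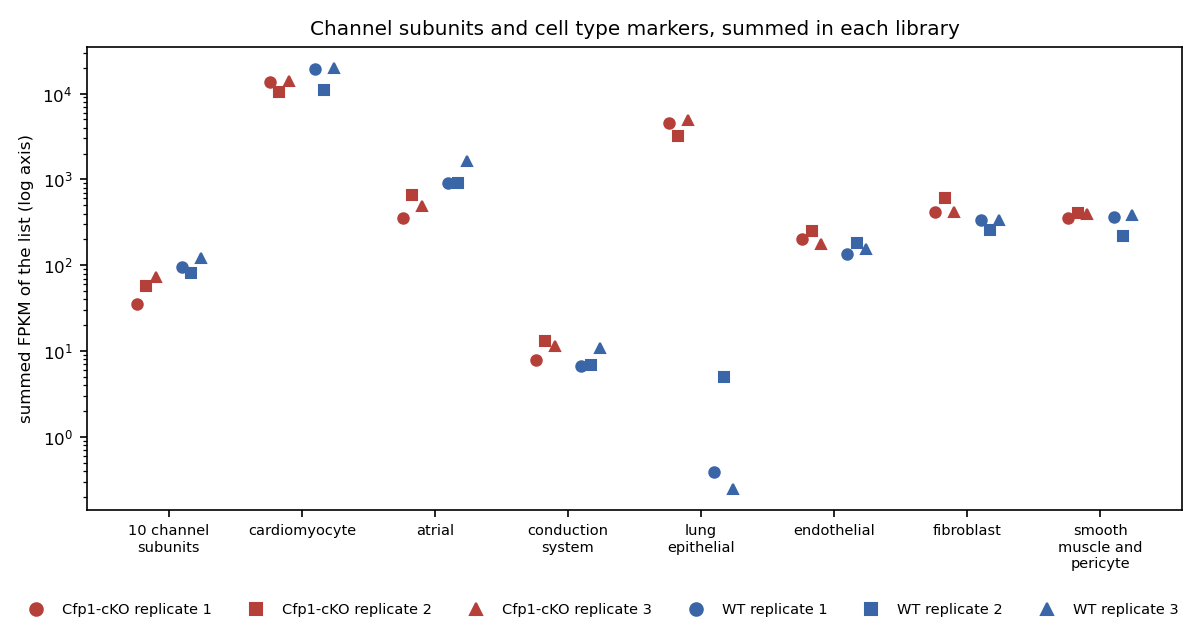
Summed FPKM (vertical axis, log scale) of the 10 channel subunits and of 7 lists of cell type markers in each library, Cfp1-cKO left of WT. The channel subunits sum to 35.8 to 72.6 FPKM in Cfp1-cKO hearts and 81.4 to 122.5 FPKM in WT hearts, and the lung list stands at 3228 to 4914 FPKM in Cfp1-cKO hearts and at most 4.98 FPKM in WT hearts.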

How the data were processed

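RNA-seq was run on 3 Cfp1-cKO and 3 WT heart samples. The authors deposited FPKM per gene in a plain and an annotated table, identical for all 26881 genes. Per the paper's methods, the authors worked with DESeq, TopHat and Bowtie2 and cited a chicken genome address. Per the submitters' processing notes, the authors used CASAVA, Bowtie2 2.2.3, HISAT2 2.1.0, TopHat2, HTSeq 0.6.0, DESeq2 and GRCm38. Label text on retinas could not be related to these hearts.

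FPKM carry no counts of their own, so limma 3.58.1 (lmFit and eBayes with trend, R 4.3.3) was run on log2(FPKM + 1) of the genes averaging 1 FPKM or more, with genotype only and Benjamini-Hochberg adjustment over all tested genes. The FPKM branch of the planned tests applied. Fragments were worked back from the FPKM steps. With exon lengths of GENCODE release M21, 23964 of 26881 genes gave whole fragments in every library within 0.02. For 2622 more, another length was searched for and the first to give whole fragments was taken. Together these made 98.9% of genes, of which the searched part is no check on the lengths. For the rest the fragments are missing in every library. Fragments summed to 98.6% to 98.8% of the library totals. Genes of the mitochondrial genome held 29.6% to 34.9% of fragments in Cfp1-cKO and 36.9% to 39.2% in WT hearts. Replicates differed by more than sampling noise in every pair (chi-square per degree of freedom 30.6 to 78.8), so each library counted once. The fit was tested on simulated fragments. Tables and plots were made in Python 3.11.15 (pandas 2.3.3, matplotlib 3.10.9).

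The members and gene lists were chosen with earlier results of these data known. Named genes were the 10 subunits, Cxxc1, up to 6 called genes of each list with the largest change, up to 6 called Kcn genes in each direction, and of the marker lists those with the largest mean FPKM; other genes are named as picked out after their values were seen. Some genes that this rule or the lists cover are not reported here. Alternatives were the pseudocount, the filter, 2 other scalings, removal of mitochondrially encoded and haemoglobin genes, voom on fragments, the replicate number as a block, and each library left out; sex from Xist and Ddx3y was added after seeing the data. Alternatives other than the filter used the genes of the filter above, of which 10850 had fragments for voom and 10998 remained after the removal of mitochondrially encoded and haemoglobin genes. Same-numbered libraries had correlated deviations from their group means of 0.11, 0.04 and 0.10.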

Additional observations from a re-analysis of the deposited data

Results flagged for a closer look

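Kcnj11 went opposite ways in the libraries that differ in Xist and Ddx3y. In the Xist-high libraries both Cfp1-cKO hearts had more, 4.998 and 5.77 FPKM, against 2.25 FPKM in the WT heart. In the Y-high libraries the Cfp1-cKO heart had less, 7.40 FPKM, against 9.43 and 13.2 FPKM in WT hearts. The log2 fold changes were 0.97 and -0.54, and their difference, Y-high minus Xist-high, was -1.51. An interaction term fitted with limma across all genes gave an unadjusted p of 0.00307 and an adjusted p of 0.173, so the difference did not pass the test. For 4 of the 9 tested subunits this term had an unadjusted p below 0.05, as did 12.6% of all tested genes, and it passed after adjustment for 0 genes. The WT side of the Xist-high libraries and the Cfp1-cKO side of the Y-high libraries were 1 library each, assumed to vary like the others.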

How the results depend on the processing

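The count of subunits called lower was 3, ran from 0 to 3 with 1 library left out and was 0 with no filter. Over all tested genes 185 were called lower, 50 to 201 with 1 library left out and 91 with no filter. None of the 9 was called higher under any setting. Of all Kcn genes 3 were called lower, 0 to 3 with 1 library left out, 0 with no filter and 5 after median-of-ratios scaling. Under that scaling 358 of all tested genes were called lower. The 1 Kcn gene called higher became 1 to 2 with 1 library left out, 4 with no filter, 2 under cardiomyocyte marker scaling and 0 by voom, where the fragments of Kcnj15 were not recovered. Over all tested genes 2325 were called higher, and 538 to 2588 with 1 library left out. With no filter it was 1518 of 26881, under cardiomyocyte marker scaling 3578 of 11017, and by voom 2541 of 10850. Kcnq1 turned to -0.031 (log2) after median-of-ratios scaling. Kcnj11 turned to 0.079 under cardiomyocyte marker scaling, 0.22 with sex as a covariate, and stood between -0.80 and 0.26 with 1 library left out. The log2 difference of the Kcnd3 to Kcnd2 ratio stood between -0.80 and 0.015 (0.013 without Cfp1-cKO replicate 2) and that of Kcnj11 to Abcc9 between -0.69 and 0.75 with 1 library left out. The causes were not tested.

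The replicate number does not pair the libraries by their labels. With it as a block, 2 subunits were called lower and 0 higher, and of all Kcn genes 2 were called lower and 1 higher. Of all 11017 tested genes 152 were called lower and 1597 higher in that fit. Kcnip2 had a log2 fold change of -1.29 there (limma, adjusted p = 0.0564). Each library correlated best with the library of its own number, a hint from the data only. Sign flips of same-numbered pairs for the ratios cannot go below p = 0.25 (exact). Depth was lowest for Kcnd2 and Kcnd3, at 59 to 284 fragments a library. On log2(FPKM + 1) the fold changes of genes at such low FPKM come out too small. That of Kcnd2 was -0.38 there, and -0.64 with a pseudocount of 0.1.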
